A study of Rattus norvegicus with 9 samples.

Results

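Cells that had been given erastin together with PQR NPs were compared with cells that had been given nothing, by RNA sequencing of PC12 cells. PC12 is a rat line from a pheochromocytoma that makes catecholamines and can take on neuron-like features. The labels give every group the wild-type genotype of this line. The comparison used 3 untreated control libraries and 3 co-treated libraries of the 9 in the series, and the other 3 were from cells given erastin alone. The labels call PQR NPs a nanodelivery system and do not describe what the particles hold, and neither dose nor time is given in the sources used here. None of the 9 libraries of the series came from cells given the particles without erastin. An effect of the particles themselves and one of erastin therefore cannot be told apart in the difference from control. The members were all transcripts that passed a filter on low counts applied to these 6 libraries alone: 16255 of the 41078 rows of the table, which held 99.84% to 99.9% of the counts of each library. Of the remaining rows, 17558 had no count in the 6 libraries and 7265 had too few.

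As background, erastin blocks the cystine/glutamate antiporter of the plasma membrane. Without cystine the cell runs short of glutathione, the cofactor with which glutathione peroxidase 4 clears lipid peroxides, and iron-dependent peroxidation of membranes can then kill the cell by ferroptosis. Catecholamine-making cells oxidise dopamine, which itself yields reactive oxygen species. The series set the particles against damage of this kind, and the question here is how far the transcripts of cells given both agents stood from those of cells given neither.

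The table gives Ensembl transcript IDs and pairs them with no gene names. None of the IDs (0 of 41078) matched the RefSeq gene table used here, and the 14 gene lists with 201 entries written for this comparison, which included markers of chromaffin cells and of other cell types, therefore gave no test and no check of the labelled cell type. Transcripts are described below by their abundance rank, which orders them by mean CPM (counts per 1000000 counts of the library) over the 6 libraries, rank 1 being the highest. CPM are not divided by transcript length, so a rank orders counts and not molecules. In such bulk libraries fewer cells that make a transcript and less of it per cell cannot be told apart. Whether replicate libraries stem from different cultures is not in the labels. The p-values therefore reflect the spread among these samples alone, which may be technical.

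Control libraries held 37520642, 39140041 and 38206510 counts, and co-treated libraries 39292116, 40826754 and 39227880, so that the groups were of similar depth. At these depths a count of 0 allows 0.0735 to 0.08 CPM (3 counts, counting error only). The number of transcripts with at least 1 count was 19578 ± 150 per control library and 19987 ± 135 per co-treated library (SD, n = 3 each), and the groups did not overlap. The gap of 409 was 373 after all libraries were thinned to equal depth. It was 264 among transcripts with 10 counts or more. Each of these differences had an exact permutation p of 0.1 (two-sided), the smallest that 3 against 3 can give, and 0.1 after adjustment over 4 tests. The libraries of a group were not copies of each other, since the chi-square of their counts was 31.7 to 65.9 per degree of freedom. Pearson's r of log2 CPM, across transcripts that are not independent replicates, was 0.935 to 0.943 between controls, 0.941 to 0.947 between co-treated libraries and 0.919 to 0.931 between the groups. The spread within a group was somewhat larger in controls, with a median SD of 0.199 on the log2 scale against 0.163 under co-treatment.

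Co-treated cells differed from untreated cells in 2659 of the 16255 transcripts at an adjusted p of 0.05 in edgeR's quasi-likelihood test, which is 16.4% of those tested; transcripts past this threshold are referred to as called. Higher levels were found for 1378 (8.48%) and lower levels for 1281 (7.88%). Most of these differences were small. Of the transcripts called, 1072 differed by less than 1.5-fold and 951 by 1.5-fold to 2-fold. A difference of 2-fold or more was found for 636, of which 363 were higher (2.23% of those tested) and 273 lower (1.68%). The median called transcript was 1.59-fold above control among those higher (interquartile range 1.39 to 2.05) and 1.57-fold below it among those lower (1.39 to 1.89). At 4-fold or more there were 115 rises and 49 falls, and at 16-fold or more 21 rises and 9 falls, where a transcript absent from all 3 libraries of a group entered at the bound that its floor allows. Part of these had their side fixed by the filter. Of 81 tested transcripts that reached its cutoff in every co-treated library and in no control library, 43 were called higher. Of 62 that reached it in every control library and in no co-treated library, 22 were called lower. Without those, a tally added after seeing the data, 320 rises and 251 falls remained at 2-fold or more, 75 and 28 at 4-fold or more, and 6 and 0 at 16-fold or more. All 2659 called transcripts had control and co-treated libraries that did not overlap. Among all tested transcripts 6457 (39.7%) did not overlap, so 3798 were apart in rank without reaching the threshold.

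**Figure D1:**
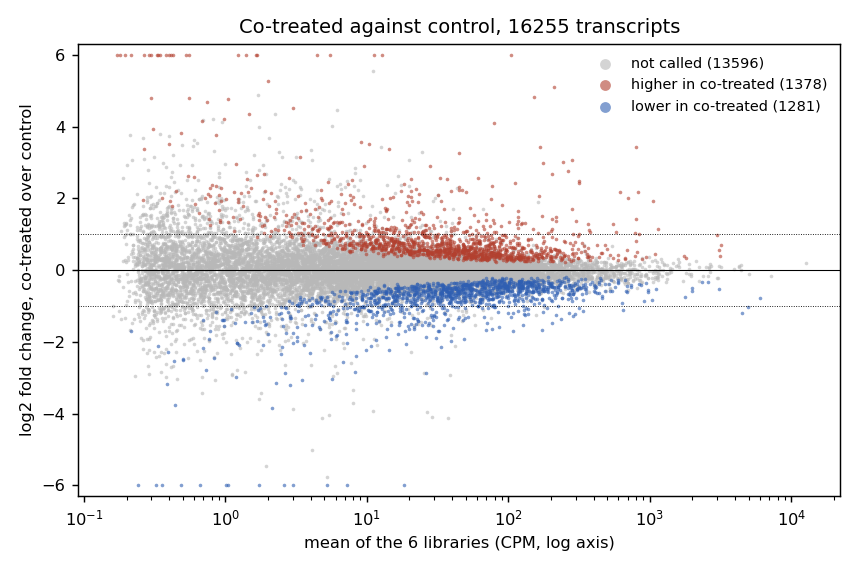
Log2 fold change of co-treated over control cells (vertical axis) against the mean CPM of the 6 libraries (log axis) for the 16255 transcripts tested, with those called higher in red (1378), lower in blue (1281) and not called in grey (13596). Dotted lines mark 2-fold; fitted changes beyond 6 on the log2 scale are drawn at the edge, and most called points lie inside the dotted lines.

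How many transcripts passed changed with the library left out, and with fewer libraries the test also has fewer degrees of freedom. Leaving out control replicate 2 took the 2659 to 1251 (664 higher, 587 lower). Without control replicates 1 and 3 the count was 2499 (1227 and 1272) and 2005 (1008 and 997). Leaving out a co-treated library gave 1447 for replicate 1 (749 and 698), 916 for replicate 2 (480 and 436) and 1197 for replicate 3 (629 and 568). The 636 that differed 2-fold or more were 415 without co-treated replicate 2, and the 363 higher among them were 230. Called in the same direction with each of the 6 libraries left out in turn were 821 transcripts (436 higher and 385 lower), 30.9% of those called with all of them. These 821 had a median fold of 1.88 and the other 1838 a median fold of 1.47. Larger folds pass a smaller fit more easily, so this gap describes how the 821 were picked. The balance of directions was close to even in the fit on 6 libraries, at 51.8% higher, and was 45.5% when the erastin libraries entered the same fit.

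Transcripts shown to differ by more than 1.5-fold were fewer. In edgeR's test against a 1.5-fold difference 327 passed (2.01% of those tested), 205 higher and 122 lower. This count was 236, 183 and 247 if control replicate 1, 2 or 3 was left out. It was 204, 164 and 175 if co-treated replicate 1, 2 or 3 was.

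A transcript that was not called is not thereby shown to be at its control level, so the 95% interval of each fold change (limma-voom, not adjusted for the number of transcripts) was read as well. For 10048 transcripts (61.8%) the interval lay within 2-fold of control, and for 5411 (33.3%) within 1.5-fold. Of the 13596 transcripts not called, 8595 (63.2%) were within 2-fold by this measure and 5095 (37.5%) within 1.5-fold. The remaining 5001 had an interval that reached a 2-fold difference, so for these the data do not exclude a change of that size. The median interval reached 1.33-fold to either side of the estimate over all tested transcripts, and 1.39-fold among those not called.

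Level set how much could be seen. Tiers were formed on the mean of both group means, so that rises and falls of 1 size were placed alike. Under 1 CPM, 74 of 2201 transcripts were called (3.36%), and 0 had an interval within 1.5-fold of control. From 1 to 10 CPM 396 of 4547 were called (8.71%), and from 10 to 100 CPM 1591 of 7356 (21.6%). From 100 to 1000 CPM 578 of 2055 were called (28.1%), with 69.8% of intervals within 1.5-fold. At 1000 CPM or more 20 of 96 were called (20.8%), with 80.2% of intervals within 1.5-fold. Because the test has more power at high counts, these shares do not rank the tiers by how much they responded.

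The direction of the calls went with level in part. Higher transcripts made up 56.3% of the calls from 1 to 10 CPM (223 against 173), 52.8% from 10 to 100 CPM (840 against 751) and 44.3% from 100 to 1000 CPM (256 against 322). From 10 to 100 CPM, where most calls lay, the majority turned to lower without control replicate 1 (713 higher against 739 lower), with DESeq2 (1221 against 1231) and with all 9 libraries in the fit (784 against 908). From 100 to 1000 CPM lower calls stayed the majority with each library left out (39.5% to 48.1% higher). Under 1 CPM 50 were higher and 24 lower, a split that ran from 25% higher without co-treated replicate 2 to 90.4% without control replicate 3. Part of these calls had their side fixed by the filter (43 higher and 22 lower calls over all tiers), so the split under 1 CPM is a description only. The tier at 1000 CPM or more held only 20 calls, 9 higher and 11 lower, and its majority turned when some libraries were left out.

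**Figure D2:**
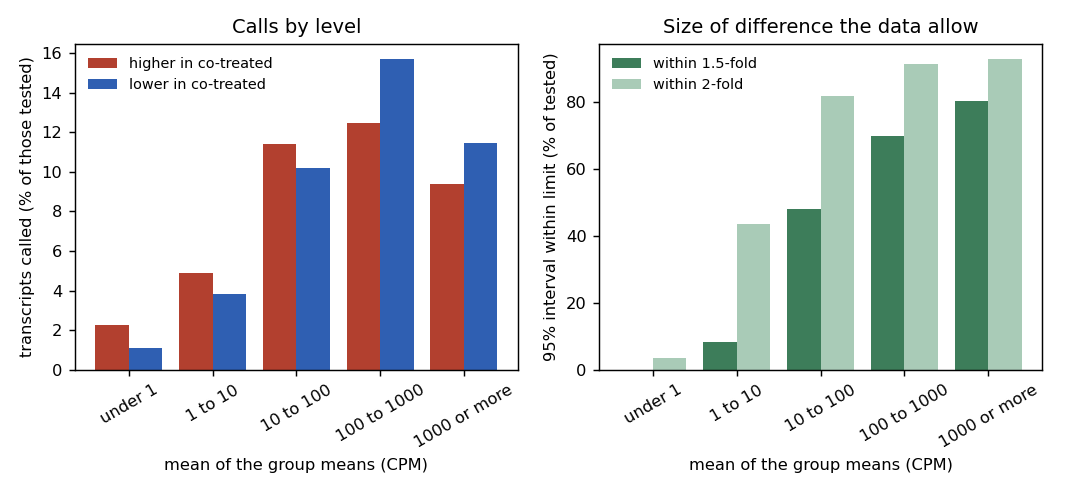
Left, the share of tested transcripts called higher (red) or lower (blue) in co-treated cells in each tier of mean CPM; right, the share whose 95% interval lay within 1.5-fold (dark green) or 2-fold (light green) of control. Calls are fewest under 1 CPM (3.36% of transcripts), where 0 intervals lie within 1.5-fold, and 80.2% do so at 1000 CPM or more.

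Among the 30 most abundant transcripts 10 were called, 4 higher and 6 lower, or 33.3% beside 16.4% of all transcripts, whose counts are lower. The 20 that were not called all had intervals within 1.5-fold of control, so at the top of the abundance range most levels were tied closely to those of untreated cells. The 3 largest differences in this class were at ranks 6 and 5, which were lower under co-treatment, and at rank 20, which was higher.

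The transcript of rank 6 stood at 5739, 7120 and 5727 CPM in the controls and at 2511, 2823 and 2983 CPM in the co-treated libraries. Its level was 0.44 of control (95% interval 0.364 to 0.535, adjusted p 0.0032), with the highest co-treated library far below the lowest control. It also passed the test against a 1.5-fold difference (adjusted p 0.031), the only 1 of the 10 called in this class to do so. Ranks 20 and 5 came next without passing (adjusted p 0.058 and 0.097). With erastin alone it stood at 2500, 2857 and 3394 CPM, in the range of the co-treated libraries (adjusted p 0.49 between them).

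The transcript of rank 5 read 6018, 7880 and 6010 CPM in controls and 2961, 3278 and 3628 CPM under co-treatment, which is 0.487 of control (95% interval 0.391 to 0.614, adjusted p 0.0079). Rank 3 went the same way, from 6780, 8799 and 6936 CPM to 4057, 4519 and 4793 CPM, 0.584 of control (95% interval 0.478 to 0.72, adjusted p 0.015). For all of ranks 3, 5 and 6, control replicate 2 was the highest library. The call at rank 3 was lost without co-treated replicate 2 (adjusted p 0.0671), and those at ranks 5 and 6 held with each library left out.

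Rank 1, the most abundant transcript of all, was not called. It averaged 11744 ± 653 CPM in control and 13558 ± 1324 CPM in co-treated libraries (SD, n = 3 each), 1.14 times control with a 95% interval of 0.976 to 1.32 (adjusted p 0.33). Rank 2 was likewise not called, at 7519 ± 1080 and 6770 ± 163 CPM (0.885 of control, 95% interval 0.742 to 1.07, adjusted p 0.4).

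Of the abundant transcripts that were higher, rank 20 showed the largest difference. It read 2047, 2093 and 1748 CPM in controls and 3612, 4092 and 4169 CPM under co-treatment, 1.98 times control (95% interval 1.68 to 2.35, adjusted p 0.0036). With erastin alone it was higher still, at 5480 ± 441 CPM (SD, n = 3), and the co-treated level was 0.698 of that (adjusted p 0.0032). Rank 13 rose from 2490, 2519 and 2189 CPM to 3734, 3847 and 4265 CPM, 1.62 times control (adjusted p 0.0082), beside 8502 ± 1889 CPM with erastin (SD, n = 3). Rank 16 stood apart from both other groups: 2426, 2611 and 2342 CPM in controls, 3913, 3604 and 3563 CPM under co-treatment and 1692, 2026 and 1811 CPM with erastin. Its co-treated level was 1.48 times control (adjusted p 0.0084) and 1.93 times erastin (adjusted p 0.00038).

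The other called transcripts of this class differed less. Rank 14 was 1.31 times control, rank 17 was 0.688, rank 27 was 0.792 and rank 30 was 0.797 (adjusted p 0.028, 0.032, 0.021 and 0.036). None of these held with each library left out. Rank 14 reached an adjusted p of 0.11 without co-treated replicate 2, and was also lost without control replicate 2 (0.067) and co-treated replicates 1 (0.0653) and 3 (0.083). Rank 17 was lost when control replicate 2 or 3 was left out (adjusted p 0.0934 and 0.0746), and likewise for co-treated replicates 1 and 2 (0.0888 and 0.117), and reached 0.05 without co-treated replicate 3. Rank 27 was lost without co-treated replicates 1, 2 and 3 (0.0505, 0.0927 and 0.064). Rank 30 was lost without control replicates 1 and 3 (0.0522 and 0.0602) and co-treated replicates 1, 2 and 3 (0.0849, 0.112 and 0.0989). Of the 30 transcripts, 10 were called with 6 libraries, 5 without co-treated replicate 2, and 6 each without co-treated replicates 1 and 3.

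**Figure D3:**
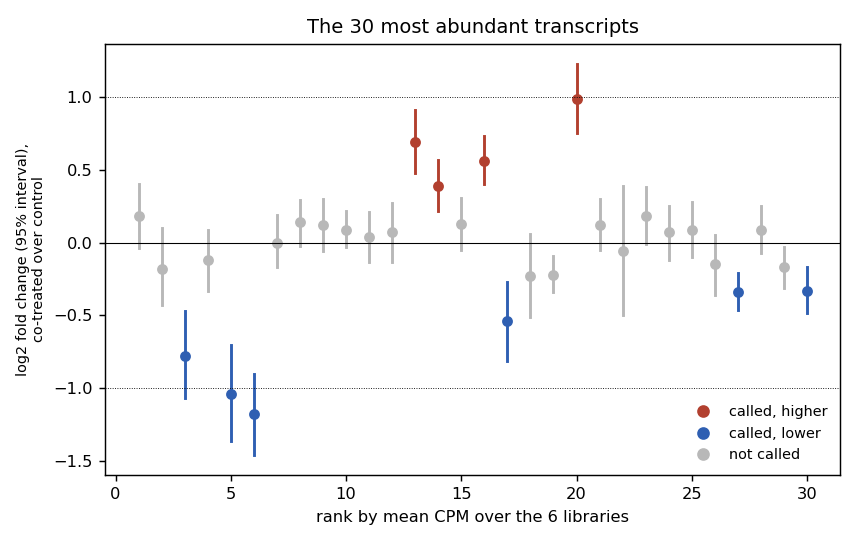
Log2 fold change of co-treated over control cells with its 95% interval (vertical axis) for the 30 transcripts with the highest mean CPM, by rank; red and blue mark called transcripts that were higher (4) and lower (6), grey those not called (20). Ranks 3, 5 and 6 lie well below 0 among neighbours whose intervals are close to it.

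Outside the very top, the 10 most abundant transcripts that were at least 2-fold higher ran from rank 74 to rank 233, with folds of 2.01 to 10.8 and adjusted p of at most 0.0086. Of these, ranks 129 and 143 did not pass the test against a 1.5-fold difference (adjusted p 0.12 and 0.057). Levels of the 10 fell into different patterns against cells given erastin alone. For 3 of the 10 the co-treated level was not called different from that with erastin, for 3 it was below, and for 4 it was above.

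Ranks 74, 130 and 139 were of the first kind. Rank 74 averaged 699 ± 82.9 CPM in controls, 1581 ± 60.9 under co-treatment and 1579 ± 332 with erastin (SD, n = 3 each). Its co-treated level was 0.969 of that with erastin (adjusted p 0.79). Rank 130 read 285, 272 and 327 CPM in controls and 1350, 1369 and 1338 CPM under co-treatment, 4.52 times control (95% interval 4.01 to 5.12, adjusted p 6.9e-05), and 1488, 1252 and 1329 CPM with erastin. Rank 139 read 126, 165 and 106 CPM in controls and 1326, 1453 and 1581 CPM under co-treatment, 10.8 times control (95% interval 8.33 to 14.4, adjusted p 0.00039). With erastin it stood at 1816, 1385 and 1488 CPM. For ranks 130 and 139 the co-treated libraries lay with the erastin libraries and well apart from the controls. Their co-treated level was 0.963 and 0.899 of that with erastin (adjusted p 0.54 and 0.3). For none of the 3 transcripts does this show that both levels are alike.

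Rank 92 was of the second kind. Its controls were at 388, 487 and 425 CPM, its co-treated libraries at 1686, 1653 and 1640 CPM and its erastin libraries at 12076, 11735 and 14325 CPM. The co-treated level was 0.126 of that with erastin (adjusted p 4.8e-05) and still 3.77 times control (95% interval 3.26 to 4.38, adjusted p 0.00027).

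Rank 214 was of the third kind, with levels that set co-treated cells apart from both other groups. It read 223, 214 and 225 CPM in controls, 239, 305 and 262 CPM with erastin and 982, 1034 and 1001 CPM under co-treatment. The co-treated level was 4.48 times control (95% interval 4.07 to 4.94, adjusted p 2e-05) and 3.6 times that with erastin (adjusted p 8.3e-05), while erastin alone was not called against control (1.23 times control, adjusted p 0.053). Rank 137 was also above both, with 1173 ± 89.9 CPM beside 427 ± 28.8 in controls and 700 ± 16.8 in the erastin group (SD, n = 3 each).

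The 10 most abundant transcripts that were at least 2-fold lower ran from rank 5 to rank 813, at 0.387 to 0.496 of control and adjusted p of at most 0.012. Of these, ranks 5, 473, 511 and 644 did not pass the test against a 1.5-fold difference (adjusted p 0.097, 0.082, 0.077 and 0.11). Rank 767 was the lowest of the 10 relative to control, with 385, 334 and 298 CPM in controls and 136, 135 and 130 CPM under co-treatment (0.387, 95% interval 0.325 to 0.467, adjusted p 0.00093). With erastin alone it was lower again, at 85.5, 62.1 and 61.8 CPM, so the co-treated level lay between the others (1.85 times erastin, adjusted p 0.0014). Rank 560 read 426, 386 and 429 CPM in controls, 180, 182 and 176 CPM under co-treatment and 155, 144 and 150 CPM with erastin.

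Ranks 473 and 644 were lower under co-treatment than in both other groups. Rank 473 read 405, 410 and 583 CPM in controls, 427, 476 and 470 CPM with erastin and 251, 199 and 191 CPM under co-treatment, 0.451 of control (adjusted p 0.0082) and 0.449 of erastin (adjusted p 0.00048). Rank 644 read 293, 351 and 469 CPM in controls, 553, 706 and 769 CPM with erastin and 140, 160 and 194 CPM under co-treatment. Its co-treated level was 0.438 of control (adjusted p 0.012) and 0.235 of erastin (adjusted p 0.00028). The call of rank 644 against control was lost without co-treated replicate 2 (adjusted p 0.0601). In both transcripts the controls were spread more widely than the co-treated libraries.

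**Figure D4:**
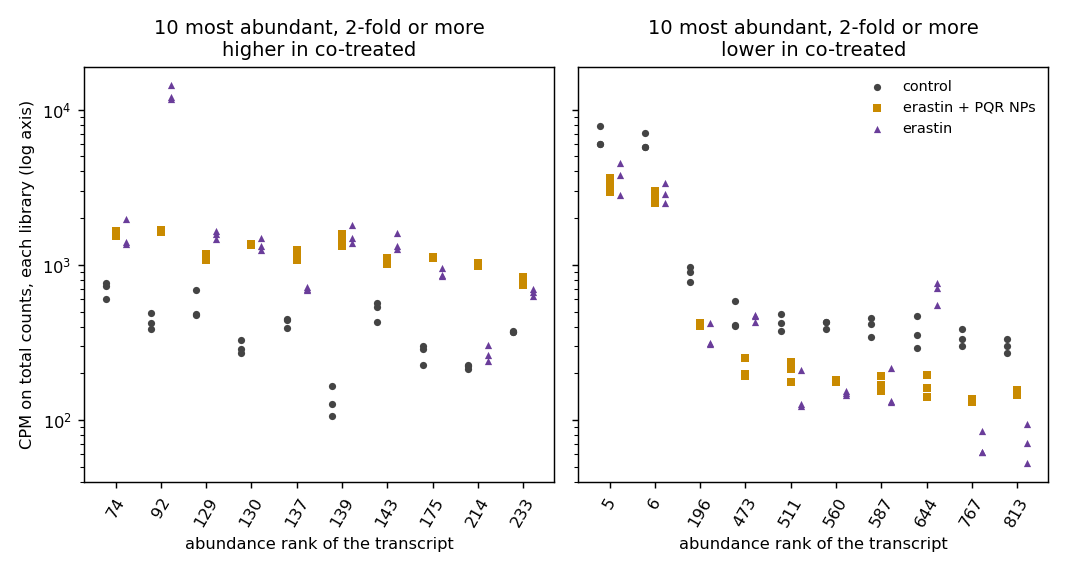
CPM on total counts (log axis) in each of the 3 control (circles), 3 co-treated (squares) and 3 erastin libraries (triangles) for the 10 most abundant transcripts at least 2-fold higher (left) and 2-fold lower (right) in co-treated than in control cells, by abundance rank. Rank 92 lies far below its erastin level, rank 214 far above it, and ranks 130 and 139 overlap with it.

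The largest differences at a well-measured level were looked for among transcripts with a mean of 50 CPM or more and counts in both groups, a class picked once the values were known. The 6 largest rises were of 8.39-fold to 34.6-fold, and the 6 largest falls were to 0.308 to 0.349 of control, so the range of rises was the wider.

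Rank 890 rose most, from 10.7, 12.1 and 12.2 CPM in controls to 396, 423 and 409 CPM under co-treatment, 34.6 times control (95% interval 29.3 to 40.7, adjusted p 4.7e-06). Erastin alone gave 148, 115 and 122 CPM, and the co-treated level was 3.08 times that (adjusted p 8.3e-05). Rank 1314 went from 9.81, 11.5 and 9.24 CPM to 307, 285 and 284 CPM, 28.2 times control, and was 1.63 times its erastin level of 172 ± 10.2 CPM (SD, n = 3; adjusted p 0.00028). Rank 2749 reached 150 ± 4.5 CPM, beside 8.64 ± 2.22 in controls and 35.6 ± 4.8 in the erastin group (SD, n = 3 each). Rank 1162 reached 308 ± 10.3 CPM, beside 27.9 ± 2.04 and 70.1 ± 5.99 (SD, n = 3 each). These 4 transcripts were also higher than control with erastin alone (ranks 890, 1314, 2749 and 1162 by 11.1-fold, 17-fold, 4.16-fold and 2.52-fold, adjusted p 5.5e-05, 5.5e-05, 0.00075 and 0.00021) and stood higher still under co-treatment. Rank 603 did not follow them: with 505 ± 30.9 CPM beside 59.2 ± 2.4 in controls it was 8.39 times control, but 1619 ± 36.2 CPM were measured with erastin (SD, n = 3 each).

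The deepest falls in this class were smaller in size. Rank 1982 went from 178, 155 and 158 CPM in controls to 52.3, 48.1 and 53.6 CPM under co-treatment, 0.308 of control (95% interval 0.265 to 0.359, adjusted p 0.00024), and stood at 32.8, 32.7 and 21.3 CPM with erastin. Rank 1627 read 186 ± 15.7, 65.8 ± 7.71 and 27.2 ± 1.87 CPM in the same order (SD, n = 3 each), so that both lay between control and erastin. Rank 2832 did too, with 116 ± 5.44, 38 ± 4.69 and 24.8 ± 4.19 CPM, and rank 2503 was not called against erastin, with 129 ± 8.97, 43.5 ± 3.53 and 41 ± 5.18 CPM (SD, n = 3 each). The remaining 2 had means below erastin. Rank 1122 was at 0.312 of control, with 261 ± 21.6 CPM in controls and 82.8 ± 10.3 in co-treated libraries (SD, n = 3 each), while its erastin libraries read 250, 216 and 71.2 CPM (co-treated 0.449 of erastin, adjusted p 0.062). Rank 3120 was at 0.314 of control and 0.461 of its erastin level of 70.9 ± 5.05 CPM (SD, n = 3; adjusted p 0.0035 against erastin). It was less certain, with controls at 150, 70.3 and 97.8 CPM and co-treated libraries at 25.2, 42.4 and 34 CPM. Its call was lost without co-treated replicate 1 or 3 (adjusted p 0.0583 and 0.0705).

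Some transcripts were counted in only 1 of the groups. There were 19 with no count in any control library, all called higher, and 10 with no count in any co-treated library, all called lower. Such transcripts passed the filter only through the group in which they were present and had to differ, so these counts are a description. Most were rare: 14 of the 19 and 4 of the 10 averaged under 1 CPM where they were present. Of the 19, 12, 5 and 9 were called with co-treated replicate 1, 2 or 3 left out, and of the 10, at least 8 with any 1 library left out. At an adjusted p of 0.01, 5 of the 19 and 6 of the 10 passed. DESeq2 called 4 and 6 and gave the other 15 and 4 no adjusted p. Their state with erastin alone was mixed: of the 19, 10 had counts in all erastin libraries and 9 in some of them, and of the 10, 3 had counts in all, 6 in some and 1 in none.

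By the rule for named features, the transcripts with the largest folds and at least 5 CPM in the higher group are given by ID. All 4 were near or at 0 in the lower group and passed the filter through the other, so no p-value is given in their support. ENSRNOT00000047466 had no count in the controls and 8008, 9211 and 7923 counts in the co-treated libraries (mean 210 ± 13.2 CPM, SD, n = 3). This is at least 2685-fold above control (floor of 3 counts per library). Its erastin libraries held 0, 2 and 4744 counts, so erastin libraries disagreed among themselves, and it was not called when they entered the fit (adjusted p 0.0726). ENSRNOT00000092372 had 1 count in each control library and 436, 451 and 411 counts under co-treatment. Its co-treated over control ratio, from summed counts scaled by depth, was 416, with an exact 95% counting interval of 142 to 2020. That interval covers counting error alone and leaves out the spread between libraries. With erastin alone 267, 240 and 505 counts were found.

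In the opposite direction, ENSRNOT00000012036 went from 469, 365 and 813 counts in controls to 0, 0 and 2 counts under co-treatment, and had 328, 193 and 442 counts with erastin. Its ratio of control to co-treated counts was 856 (exact 95% counting interval 236 to 7070, again without the spread between libraries). ENSRNOT00000087080 went from 1238, 1720 and 1266 counts (36.7 ± 6.28 CPM, SD, n = 3) to none, at least 486-fold lower. With erastin it held 1098, 0 and 712 counts. How reads were divided among the transcripts of a gene is not given, so a transcript that is well counted in 1 library and at 0 in its replicate, as here with erastin, is uncertain. Within the groups compared, 131 transcripts switched in this way (at 0 in 1 library and at 10 CPM or more in another of the same group). In edgeR's test 0 of these were called (0 at an unadjusted p under 0.05). DESeq2 called 0 of the 112 to which it gave an adjusted p, and limma-voom called 1. A wide spread within a group defines this set and also works against a call, so this outcome was close to fixed in advance. It does not show how reads were divided. With 1 library left out, 1 to 5 of the 131 were called. Leaving the 131 out gave 2792 calls in place of 2659.

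The called sets as a whole carried a limited part of the libraries. The 1378 higher transcripts took 8.563% ± 0.301 of the counts in controls, 14.23% ± 0.115 under co-treatment and 14.37% ± 0.981 with erastin (SD, n = 3 each). The 1281 lower ones took 16.57% ± 0.493, 10.97% ± 0.0577 and 11.07% ± 0.651. The 363 that were at least 2-fold higher took 0.989% ± 0.0197, 3.143% ± 0.0289 and 4.02% ± 0.174. The 273 that were at least 2-fold lower took 2.563% ± 0.171, 1.143% ± 0.0551 and 1.433% ± 0.131. The test on the control and co-treated libraries picked these sets, so their shares there describe the choice and test nothing.

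Set beside the other comparisons of the series, fitted in the same way on their own 6 libraries, this was the one with the fewest calls. Erastin alone differed from control in 8478 of 16524 transcripts (51.3%), and co-treated cells differed from erastin-treated ones in 8838 of 16597 (53.3%). Of the calls, 23.9% reached 2-fold here, against 53.5% and 47.8%. Over all tested transcripts, the median size of the log2 difference was 0.306 here, 0.685 for erastin against control and 0.645 for the co-treatment against erastin. The comparisons share libraries with one another, so each set of values is given as its own. For the 1378 transcripts that were higher here, the median log2 difference from control was 0.67 under co-treatment and 0.37 with erastin (interquartile range with erastin -0.1 to 1.09, 1352 tested there). For the 1281 that were lower it was -0.65 and -0.82 (interquartile range with erastin -1.43 to -0.27, 1280 tested there). Both rows use the same control libraries.

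**Figure D5:**
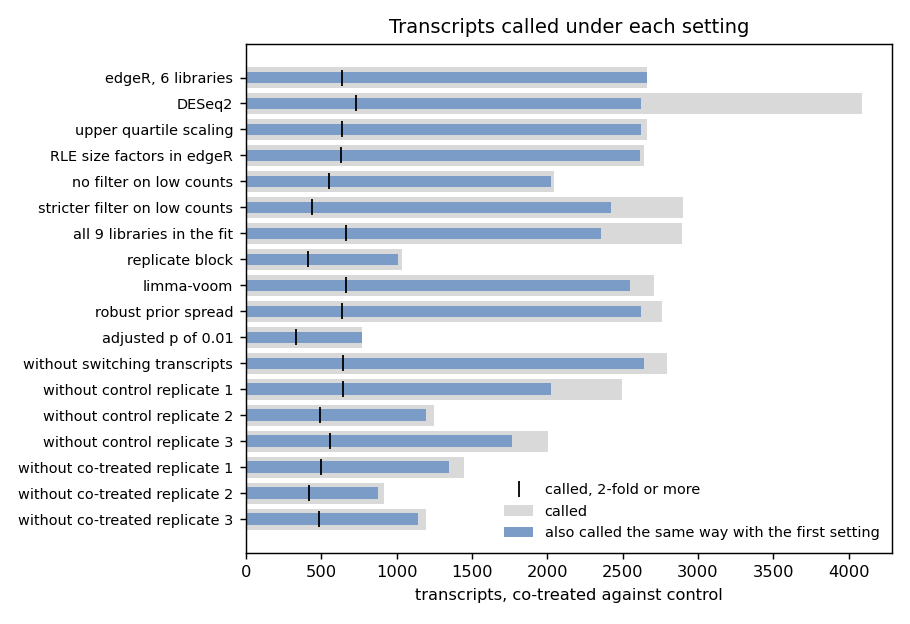
Number of transcripts called in co-treated against control cells under each setting (grey bars), the part of them also called in the same direction by edgeR on all 6 libraries (blue bars) and the number that differed 2-fold or more (black ticks). The count runs from 772 at an adjusted p of 0.01 to 4087 with DESeq2, and the ticks move less than the bars.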

How the data were processed

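Libraries were made from poly(A)-selected RNA by random priming and PCR and sequenced in paired-end mode on a NovaSeq, per the labels' protocols. The authors deposited 1 table of raw counts (whole numbers, not normalized) of Ensembl transcripts. HISAT2 2.2.1 and Rnor 6.0 are named per the submitters' processing notes; the sources used here do not give the counting program, its use of strand or the division of reads among isoforms. Overlapping, antisense and near-identical transcripts are therefore uncertain.

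The main test was edgeR 4.0.16 (R 4.3.3) on the 3 control and 3 co-treated libraries: filterByExpr (at least 10 counts at the median depth, 0.255 CPM, in 3 libraries), TMM scaling, a quasi-likelihood fit with group as the only term, and Benjamini-Hochberg adjustment at 0.05 over all transcripts tested. Fitted fold changes use TMM; printed CPM use total counts. Intervals came from limma-voom (limma 3.58.1). Differences against erastin come from the same test on those 6 libraries. The test against 1.5-fold (glmTreat) was added after the data were seen. DESeq2 1.42.0, other scalings, filters and left-out libraries were alternatives.

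Named by rule were the transcripts with the largest folds, no overlap and 5 CPM or more, of which the first 2 in each direction are given by ID, the 30 most abundant, and the 10 most abundant 2-fold changes in each direction. The comparison and lists were chosen with earlier results of these data known.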

Additional observations from a re-analysis of the deposited data

How the results depend on the processing

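With DESeq2 4087 transcripts differed, 2115 of them lower. At an adjusted p of 0.01 there were 772 (408 higher, 364 lower), and 335 of 2-fold or more (198 higher, 137 lower). With the replicate number as a block (replicate block), which the labels do not describe as a pairing, 1037 differed (550 higher, 487 lower), 412 of them 2-fold or more (240 higher, 172 lower), and 137 passed the test against 1.5-fold. Of the 30 most abundant transcripts 3 were called with it in place of 10; ranks 3, 13 and 16 reached an adjusted p of 0.0584, 0.0596 and 0.0576. Of the transcripts at 0 in a whole group it called 3 of 19 and 5 of 10. Same-numbered libraries hardly deviated together (r of deviations from the group means 0.046, 0.03 and 0.019), so they share only a number; every library but control replicate 3 correlated best with its own number. Leaving out 1 library in turn gave 916 to 2499 transcripts that differed, 480 to 1227 higher and 436 to 1272 lower, 415 to 642 that differed 2-fold or more, 230 to 367 of them higher, and 164 to 247 past the test against 1.5-fold. With fewer libraries the test has fewer degrees of freedom. The numbers that differed, also by direction and at 2-fold or more, stayed within 1.5 times their value under the remaining settings. So did the number past the test against 1.5-fold, where it was run. These settings were the scalings, the filters, limma-voom, the robust spread, the fit on all 9 libraries and the fit without switching transcripts. With the stricter filter (5 CPM or more), 2 of the 19 and 3 of the 10 transcripts at 0 in a whole group were called. The share of higher calls ran from 45.5% to 53.1% over all settings. DESeq2 shared 2619 of the 2659 calls in direction, and 722 were called the same way under every setting at 0.05, left-out libraries included and a transcript that a setting did not test taken as not called. Of 43 transcripts followed one by one, none changed sign, and 33 kept their call under every alternative that tested them. Depth limits the transcripts under 1 CPM, whose median interval reached 2.48-fold to either side.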
